A study of Mus musculus with 8 samples.

Results

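The 68 enzymes described here act on foreign compounds and on reactive aldehydes, alcohols, epoxides and quinones. They are the glutathione transferases, the aldehyde and alcohol dehydrogenases, the epoxide hydrolases, the quinone reductases, the aldo-keto reductases of family 1 and the carbonyl reductases. Members were taken by gene symbol, through the RefSeq transcript that names each row of the expression table. This gave 73 rows, and 68 genes once rows with the same 8 values were counted once, of 15653 named genes and 22523 rows in all. A further 12 symbols that meet the rule, among them Gsta1, Gstm2, Gstp1 and Aldh5a1, had no row under their name and were not analysed here.

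The question was how these enzymes differed between 3 mouse fibroblast lines that were engineered to divide with asymmetric or symmetric self-renewal. Ind-8 cells (ASYM) are fetal fibroblasts without endogenous p53 that carry a wild-type mouse p53 cDNA behind a modified human metallothionein promoter, which zinc switches on. Con-3 cells (SYM) are p53-null and hold only the vector according to the methods, although the labels describe them as the parent line. tI-3 cells (p53SYM) come from Ind-8 and in addition express a cDNA for IMPDH II, an enzyme of guanine nucleotide synthesis, constitutively. Every culture received 65 µM ZnCl2 for 48 h and puromycin at 5 µg/ml. G418 was present in tI-3 cultures only, and its dose differs between the methods and the labels. Each state is 1 cloned line, so the line, its transgene and its drug cannot be told apart. RNA of separate preparations was hybridized to Affymetrix mouse arrays, 3 for Ind-8, 3 for Con-3 and 2 for tI-3, so that p-values measure the spread between preparations of a clone. The number of arrays limits the precision, most of all for tI-3.

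Values are log2 signals. The array medians lay between 6.12 and 6.19. The bacterial hybridization controls, 14 rows, averaged 9.04, 8.98 and 9.03 on the Ind-8 arrays, 9.05, 9.16 and 9.62 on the Con-3 arrays, and 9.43 and 9.71 on the tI-3 arrays. All Ind-8 arrays were thus at the low level of these controls and both tI-3 arrays at the high level. A probe set for the 5′ part of 18S ribosomal RNA read 10.97 on Con-3 replicate 3 and 4.55 to 5.25 on the other 7 arrays. The part of these differences between arrays in the results was not tested, beyond fits that leave out an array or add control level, low or high, as a blocking factor (below, control level as a block), given where they change a result. With this block, Ind-8 is compared only with Con-3 replicates 1 and 2, so that the fit of Ind-8 against Con-3 is the same as the fit without Con-3 replicate 3. The change from Con-3 to tI-3 then comes from Con-3 replicate 3 alone, the array with the high 18S value, and Ind-8 is linked to tI-3 only through the difference of that array from the other Con-3 arrays.

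The labels were checked against 5 genes. Trp53 averaged 5.79 in Ind-8, 5.25 in Con-3 and 5.64 in tI-3. Cdkn1a, the cell cycle inhibitor that p53 activates, averaged 9.66, 5.86 and 7.44, and Mdm2, the ligase that degrades p53, 10.90, 8.90 and 9.62, in the same order. All arrays with a zinc-driven p53 cDNA were above all Con-3 arrays for these 3 genes. Mt1, a zinc-binding metallothionein, averaged 13.88, 13.73 and 13.62, and no difference between lines passed the test. Impdh2 read 12.34 and 12.38 on the tI-3 arrays, 12.16, 12.19 and 12.22 on the Ind-8 arrays and 12.51 to 12.56 on the Con-3 arrays. The tI-3 arrays were thus above every array of Ind-8, the line they derive from, and below every Con-3 array. Neither difference was called by limma (log2 change −0.17 ± 0.09 from tI-3 to Ind-8, adjusted p = 0.163, and −0.17 ± 0.09 from Con-3 to tI-3, adjusted p = 0.182). The change from Con-3 to Ind-8, −0.34 ± 0.08, was called by limma (adjusted p = 0.0108). Of 11 fibroblast markers, 9 were above the 40th percentile of all rows in every line, with Vim at 14.05, 13.88 and 13.65, while Thy1 and Lum were low. Both tI-3 arrays were below all others for 4 of the 11, Col1a1, Col3a1, Pdgfra and Vim, above all others for Dcn and Thy1, and neither for the other 5. Col3a1 averaged 8.80 in Ind-8, 9.07 in Con-3 and 6.38 in tI-3, Col1a1 12.34, 11.91 and 10.85, Pdgfra 7.54, 7.06 and 6.02, and Dcn 5.59, 5.60 and 5.83, all named after their values were seen. The part of these markers in the results was not tested. Of the 5 hepatocyte markers 0 reached that level, and Alb averaged 5.03, 4.64 and 4.65. Krt19, at 10.35, 9.52 and 9.31, was the single one of 5 epithelial markers above it. Kdr and Cd3e were the endothelial and immune markers that passed, of 3 and 2 found. In RNA of whole cultures, fewer cells that express a gene and less RNA per cell cannot be told apart.

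Detoxification is usually described in phases. Phase I enzymes, such as dehydrogenases, reductases and epoxide hydrolases, oxidize, reduce or hydrolyse a compound, and phase II enzymes, such as glutathione transferases, join it to a water-soluble group. Many of their genes are regulated by NRF2, which responds to oxidants and electrophiles, and by the aryl hydrocarbon receptor (AHR), and the liver is where most of these enzymes are best known. Aldehyde and alcohol dehydrogenases also make and remove retinoids, and aldehyde dehydrogenase activity is widely used to sort stem cells.

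The table holds no detection calls. A member was therefore called near background in a line when its mean was under the 25th percentile of all rows there, which is 4.23 for Ind-8, 4.30 for Con-3 and 4.41 for tI-3. By this limit 18 of 68 members (26.5%) were near background in all 3 lines, beside 22.3% of all rows. They were Gsta3, Gstk1, Gstm6 and Gstm7, Aldh1a1, Aldh1a2, Aldh1a7, Aldh1b1, Aldh1l1 and Aldh3a1, Adh4 and Adh6a, Ephx4, and the aldo-keto reductases Akr1b7, Akr1c13, Akr1c19, Akr1c6 and Akr1d1. Of the aldehyde dehydrogenases that make retinoic acid from retinal, Aldh1a1 read 3.25 to 3.73 and Aldh1a2 read 3.56 to 4.52 over the 8 arrays. Aldh1a3 read 4.28 to 4.70, and its mean was above the limit in every line. Another 45 members were above the limit in all lines, among them both quinone reductases and all 4 carbonyl reductases. Gsta2, Gsto2, Gstt2, Gstt4 and Mgst1 were below it in some lines only. With the 40th percentile as the limit, 31 members (45.6%) were near background, beside 37.2% of all rows. A further limit, 4.33 in every line, was the tI-3 median of 15 genes restricted to other tissues, the highest of the line medians. With it the count was 16 (23.5%), beside 22.1% of all rows. A signal above the limit is a weak measure of presence, since the tissue-restricted genes Cela1 and Ins2 averaged 7.60 and 6.30 in Ind-8.

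**Figure D1:**
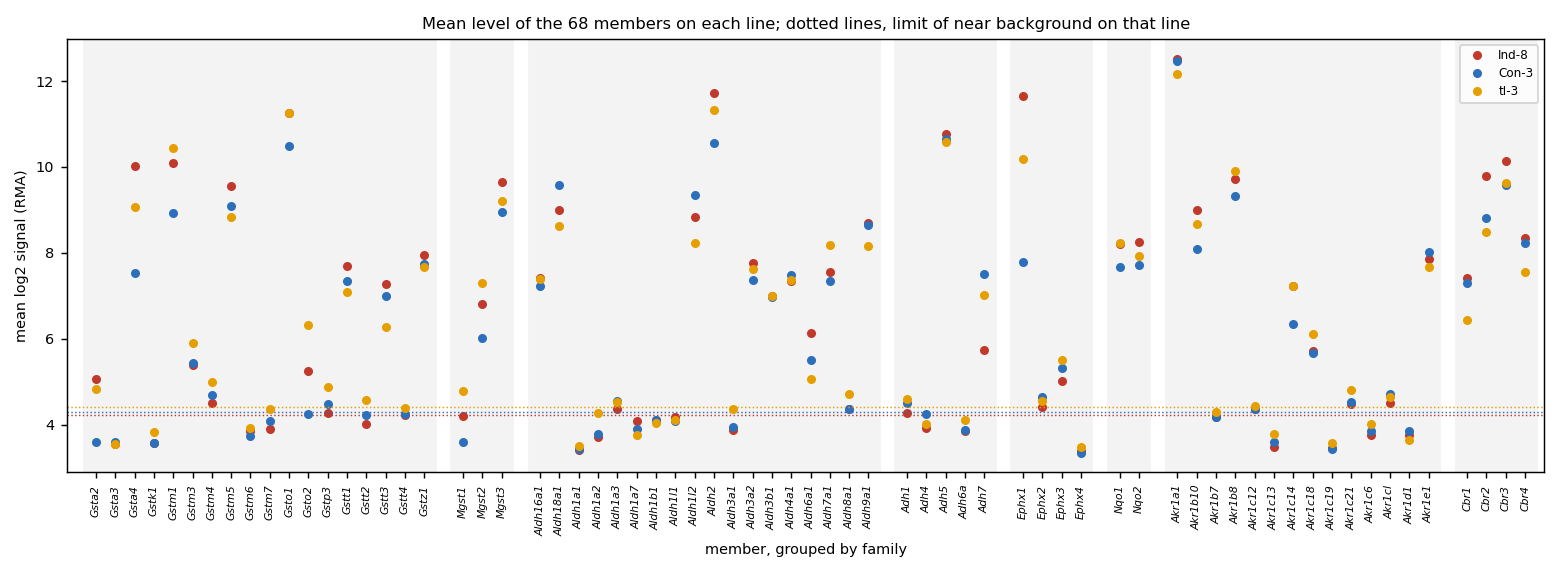
Mean log2 signal (vertical axis) of each of the 68 members (horizontal axis, grouped by family) in Ind-8 (red), Con-3 (blue) and tI-3 (orange), with dotted lines at the limit of near background in each line. The dots of 18 members lie under the limit in all 3 lines; signals of different rows are not comparable as amounts of RNA.

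Differences were tested with limma over all 22523 rows, called at an adjusted p under 0.05, and with the rank product test that the study's methods name, called at a percent of false positives (pfp) under 0.05. In Ind-8 against Con-3, limma called 16 members higher, while it called 10.9% of all rows, and 16 of 68 is 23.5%. They were Ephx1, Aldh2, Aldh3a2, Akr1b10, Akr1c14, Cbr2, Cbr3, Nqo2, Gsta2, Gsta4, Gstm1, Gstm5, Gsto1, Gsto2, Mgst2 and Mgst3. It called 3 members lower, Adh7, Aldh18a1 and Aldh1l2, which is 4.41% beside 11% of all rows. The rank product test called 8 members higher (2.17% of all rows) and Adh7 as the 1 member that was lower (1.44% of all rows). The members' median log2 change was 0.03 and that of all rows −0.06. A change of at least 1 on the log2 scale was called for 6 members (8.82%) and for 2.06% of all rows. Without Ind-8 replicate 2, limma called 11 higher (7.86% of all rows). Without any 1 of the Ind-8 arrays or Con-3 replicate 2 it called 2 lower (7.65% to 9.01% of all rows). The rank product calls went from 9 to 3 without Ind-8 replicate 1 or replicate 2 (1.84% and 1.71% of all rows) and to 4 without replicate 3 (1.59%). Under another null of this test, with each ranking permuted independently, it called 23 members and 21.0% of all rows, beside 3.61% of all rows in the main test.

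In Ind-8 against tI-3, limma called 12 members higher (17.6%, beside 15.6% of all rows) and 12 lower (17.6%, beside 15.5% of all rows), which is near the background in both directions. The higher ones were Ephx1, Aldh1l2, Aldh2, Aldh6a1, Aldh9a1, Akr1a1, Cbr1, Cbr2, Cbr3, Cbr4, Gstm5 and Gstt3. The lower ones were Adh7, Aldh1a2, Aldh3a1, Aldh7a1, Aldh8a1, Akr1c18, Ephx3, Gstm3, Gstm4, Gsto2, Gstp3 and Gstt2, of which Aldh1a2 and Aldh3a1 were near background in every line. The rank product test called Ephx1 and Cbr2 higher (2 members, beside 1.56% of all rows) and Adh7 lower (1 member, beside 0.444% of all rows). The median log2 change was −0.05 for the members and −0.06 for all rows. With control level as a block, limma called 2 members higher and 2 lower (2.2% and 0.941% of all rows), and without tI-3 replicate 2 it called 5 and 6 (7.73% and 4.61%). Without tI-3 replicate 1 it called 7 lower and without Ind-8 replicate 1 it called 8 lower, each beside 10.2% of all rows. After quantile normalization it called 7 lower (13.3% of all rows). The rank product test called 0.768% of all rows without Ind-8 replicate 1 and 0.733% without Ind-8 replicate 2. Of the 3 rank product calls, 1 was left without Ind-8 replicate 1 or 2 and 0 without Ind-8 replicate 3 or tI-3 replicate 2 (0.604% and 0.715% of all rows), while under the independent null it called 17 members and 14.4% of all rows, beside 2.01% in the main test.

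In tI-3 against Con-3, limma called 17 members higher, or 25%, beside 10.2% of all rows. They were Ephx1, Aldh1a2, Aldh2, Aldh3a1, Aldh7a1, Aldh8a1, Akr1b10, Akr1b8, Akr1c14, Akr1c18, Gsta4, Gstm1, Gstm3, Gsto1, Gsto2, Mgst1 and Mgst2. Of these, Aldh1a2 and Aldh3a1 were near background in every line, and Gsto2 and Mgst1 were near background in Con-3. It called 7 members lower, or 10.3%, beside 15.1% of all rows: Adh7, Aldh18a1, Aldh1l2, Aldh9a1, Cbr1, Cbr4 and Gstt3. By rank product 5 members were higher (Ephx1, Gsta4, Gstm1, Gsto2 and Mgst2), beside 0.63% of all rows, and 1 was lower (Aldh1l2), beside 1.67% of all rows. Without any 1 of the Con-3 arrays the rank product test called 0.813% to 0.87% of all rows in either direction. The median log2 change was 0.14 for the members and 0.04 for all rows. The limma count of higher members was 9 without tI-3 replicate 1 (7.1% of all rows), 11 with control level as a block (5.06% of all rows) and 10 against the 1 Con-3 array at the high level (4.5% of all rows), 2 fits that give the same changes. The 6 rank product calls went to 3 without any 1 of the Con-3 arrays and to 0 without either tI-3 array (0.977% and 0.821% of all rows), while under the independent null it called 19 members and 14.3% of all rows, beside 2.3% in the main test.

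These 3 comparisons share arrays, so each is given by its own values. Over all of them, 31 of the 68 members (45.6%) were called by limma in none, beside 53.6% of all rows. No called member of any family changed sign after a further quantile normalization. In the fit with control level as a block 1 did: Gstm4, named here after its values were seen, went from a log2 change of −0.49 to 0.01 in Ind-8 against tI-3 (adjusted p = 0.985). Under that block the shares of all rows called higher and lower were 8.02% and 8.18% in Ind-8 against Con-3, 2.2% and 0.941% in Ind-8 against tI-3, and 5.06% and 8.56% in tI-3 against Con-3. Counts of families and lists with the block, after quantile normalization or with 1 array left out are to be read beside such shares. After quantile normalization these were 10.7% and 11.6% in Ind-8 against Con-3, 12.1% and 13.3% in Ind-8 against tI-3, and 11.3% and 12.4% in tI-3 against Con-3. Without 1 of the Ind-8 or Con-3 arrays they were 7.86% to 10.3% and 7.65% to 9.79% in Ind-8 against Con-3. In Ind-8 against tI-3 they were 12.6% to 16.0% and 9.99% to 16.7%, and in tI-3 against Con-3 7.02% to 10.2% and 11.7% to 15.0%. Counts without a tI-3 array rest on 1 array of that line. Fewer of all rows were called in those fits too, in both directions, and the shares just given do not cover them. A smaller count there is therefore not read as a trait of a family or list. Rows of close relatives in the alpha, mu and Akr1c groups can share probe sequence, which was not examined.

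**Figure D2:**
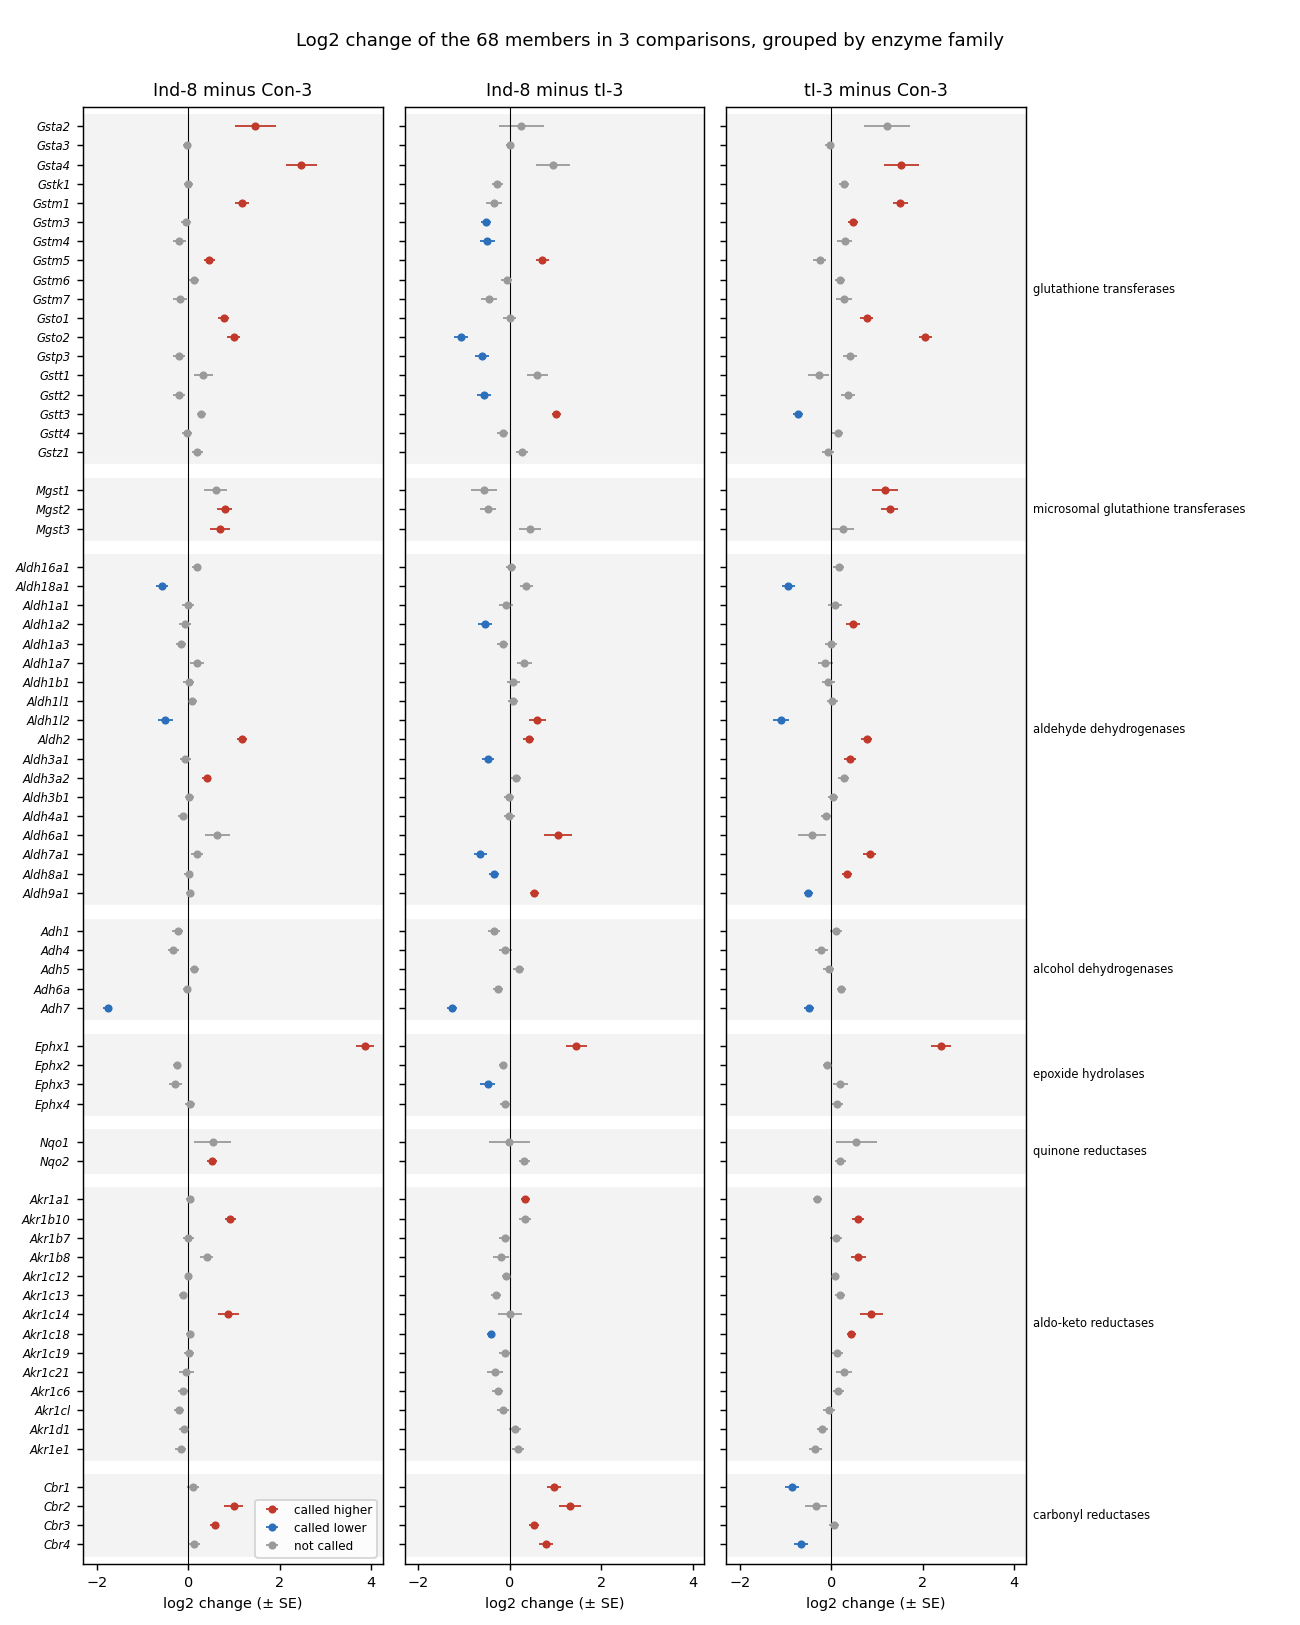
Log2 change (horizontal axis, dot with bar of ± 1 SE) of each of the 68 members (vertical axis, by family) for Ind-8 minus Con-3, Ind-8 minus tI-3 and tI-3 minus Con-3, coloured by the limma call (red higher, blue lower, grey not called). Ephx1 lies farthest to the right in all 3 panels, and Adh7 farthest to the left in the panels for Ind-8.

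Ephx1, the microsomal epoxide hydrolase that turns reactive epoxides into diols, had the greatest difference of all members. The log2 signals of Ephx1 were 11.24, 12.06 and 11.66 in Ind-8, 7.58, 8.05 and 7.77 in Con-3, and 10.37 and 10.03 in tI-3. No value was shared between lines: every Ind-8 array was above both tI-3 arrays, and these were above every Con-3 array. In Ind-8 it was up-regulated 14.4-fold with respect to Con-3, with a log2 change of 3.85 ± 0.20 (adjusted p = 1.58e-06). With respect to tI-3, Ephx1 was 2.74-fold higher in Ind-8 (log2 change 1.46 ± 0.22, adjusted p = 0.00127). The Ephx1 signal in tI-3 was 5.27-fold higher than in Con-3 (log2 change 2.40 ± 0.22, adjusted p = 6.85e-05). The difference between Ind-8 and tI-3 was 1.41 with control level as a block and was then not called (adjusted p = 0.0897; over all alternatives adjusted p ran from 0.000636 to 0.0897). Of the other epoxide hydrolases, Ephx4 was near background. Ephx2, the soluble enzyme, read 4.38 to 4.73 and was called in no comparison, and Ephx3 read 4.83 to 5.76 and was lower in Ind-8 than in tI-3 by limma, with a log2 change of −0.49 ± 0.16. That call was lost with control level as a block (−0.45), after quantile normalization (−0.37), in a fit of the 2 lines only, and without Ind-8 replicate 1 or 3, Con-3 replicate 2 or tI-3 replicate 2 (−0.48, −0.39, −0.49 and −0.24).

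Adh7, the class IV alcohol dehydrogenase that oxidizes ethanol and retinol, had the opposite order. In Ind-8 cells Adh7 had log2 signals of 5.66, 5.89 and 5.68, in Con-3 cells of 7.41, 7.63 and 7.48, and in tI-3 cells of 7.00 and 7.03. The Ind-8 arrays were the low ones, the tI-3 arrays were intermediate and the Con-3 arrays were high, with no overlap. From Con-3 to Ind-8, Adh7 was down-regulated 3.39-fold (log2 change −1.76 ± 0.10, adjusted p = 3.12e-06). Its level was 2.42-fold lower in Ind-8 than in tI-3 (log2 change −1.27 ± 0.11, SE; adjusted p = 5.66e-05). It was also lower in tI-3 than in Con-3, by 1.40-fold (log2 change −0.49 ± 0.11, adjusted p = 0.00883), a call that was lost without either tI-3 array (log2 change −0.47 without replicate 1 and −0.50 without replicate 2) and with control level as a block (−0.47). The other 4 alcohol dehydrogenases were called in no comparison by limma in the main fit. Of all rows it called 11% lower in Ind-8 against Con-3, 15.5% in Ind-8 against tI-3 and 15.1% in tI-3 against Con-3. Without Ind-8 replicate 2, 2 of the 5 were lower in Ind-8 than in tI-3 (9.99% of all rows). Adh4, near background in all lines, was called lower in Ind-8 than in Con-3 with control level as a block. Adh5, which oxidizes the glutathione adduct of formaldehyde, read 10.51 to 10.95 over the arrays, Adh1 read 4.12 to 4.71, and Adh4 and Adh6a were near background.

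The promoter windows of these enzymes of opposite order are shown with those of 3 other members that hold a searched motif. Each runs from 250 bases before to 50 bases after the start site in RefSeq (mouse build GRCm38.p6), 5′ to 3′ on the strand of the gene. Gstm1, Mgst1 and Gstt3 have 2 windows each, of which 1 is printed. Capitals mark a match on either strand to the core of the antioxidant response element (TGACNNNGC), the core of the xenobiotic response element (GCGTG) or the p53 half-site.
Ephx1, chr1:181017520-181017819, minus strand: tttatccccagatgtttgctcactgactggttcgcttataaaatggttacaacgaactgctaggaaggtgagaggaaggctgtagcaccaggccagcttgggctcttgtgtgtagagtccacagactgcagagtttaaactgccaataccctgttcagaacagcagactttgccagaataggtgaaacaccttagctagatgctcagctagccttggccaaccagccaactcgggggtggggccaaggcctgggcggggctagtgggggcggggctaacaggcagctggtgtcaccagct
Adh7, chr3:138217523-138217822, plus strand: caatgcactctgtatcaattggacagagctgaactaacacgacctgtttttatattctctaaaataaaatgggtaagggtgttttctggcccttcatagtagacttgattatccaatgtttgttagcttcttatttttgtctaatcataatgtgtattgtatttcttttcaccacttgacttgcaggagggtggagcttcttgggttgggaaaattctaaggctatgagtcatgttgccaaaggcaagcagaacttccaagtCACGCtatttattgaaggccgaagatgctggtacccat
Gstm1, chr3:108017924-108018223, minus strand: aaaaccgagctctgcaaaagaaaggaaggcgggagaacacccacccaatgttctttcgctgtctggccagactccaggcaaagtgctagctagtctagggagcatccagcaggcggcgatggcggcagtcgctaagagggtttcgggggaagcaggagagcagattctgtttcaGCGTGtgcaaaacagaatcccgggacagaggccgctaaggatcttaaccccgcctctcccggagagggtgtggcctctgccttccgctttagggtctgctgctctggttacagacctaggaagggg
Mgst1, chr6:138140277-138140576, plus strand: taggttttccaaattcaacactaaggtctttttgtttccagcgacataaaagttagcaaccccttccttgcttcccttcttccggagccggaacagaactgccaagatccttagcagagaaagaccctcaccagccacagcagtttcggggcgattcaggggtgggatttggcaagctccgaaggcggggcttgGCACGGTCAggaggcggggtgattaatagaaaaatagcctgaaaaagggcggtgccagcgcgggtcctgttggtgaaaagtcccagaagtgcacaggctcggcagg
Gstt3, chr10:75781365-75781664, minus strand: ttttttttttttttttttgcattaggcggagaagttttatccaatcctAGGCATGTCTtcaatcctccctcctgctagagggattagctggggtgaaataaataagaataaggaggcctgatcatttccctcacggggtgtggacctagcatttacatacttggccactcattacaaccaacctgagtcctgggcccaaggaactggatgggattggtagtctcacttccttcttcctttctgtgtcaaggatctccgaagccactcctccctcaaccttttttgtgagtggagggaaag
The Ephx1 window held none of the 3 motifs. The Adh7 window had a xenobiotic response element core that begins 12 bases after the start site. The Gstm1 window shown had one that begins 76 bases before the start site. The other Gstm1 window, of another start site, overlaps it and holds the same match at 231 bases. The Mgst1 window shown held an antioxidant response element core at 56 bases before the start site, and the other Mgst1 window held no match. The Gstt3 window shown had a p53 half-site at 202 bases before the start site, and the other one has it at 194 bases. A match describes the letters in the window and not a bound site.

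Of the 68 members, 60 had a promoter window that was searched, 74 windows in all. The antioxidant core was in 9 of the 74 windows (12.2%) and in 12.4% of 32851 windows of all genes. The xenobiotic core was in 20 (27.0%) and in 32.4% of all, and the p53 half-site in 5 (6.76%) and in 8.36% of all. Of the 16 members described individually, 13 had a window and 6 of these held a motif: Adh7, Aldh6a1, Gsta2, Gstm1, Gstt3 and Mgst1. The windows of Cbr2, Mgst2, Gsto1 and Gsto2 held none of the 3. Gsto1 and Gsto2 lie near each other on chromosome 19, where their windows start at 47854723 and 47865295.

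Most aldehyde dehydrogenases oxidize aldehydes. Among the 18 members of this family, Aldh2 and Aldh3a2 were higher in Ind-8 than in Con-3, and Aldh18a1 and Aldh1l2 were lower. The other 14 were not called, and of all rows 10.9% were higher and 11% lower. In Ind-8 against tI-3, 4 were higher and 4 lower (15.6% and 15.5% of all rows), and in tI-3 against Con-3, 5 were higher and 3 lower (10.2% and 15.1% of all rows). In Ind-8 against tI-3 limma called 0 of the 18 with control level as a block. There the unadjusted p of the main fit was under 0.05 for 5 higher and 4 lower, and the rank product test called 0. No share of all rows is given at this unadjusted limit, here or below, so such counts are not compared with all rows. With that block 2 were higher and 1 lower in Ind-8 than in Con-3, and 3 were higher and 2 lower in tI-3 than in Con-3. After quantile normalization 2 were higher and 1 lower in Ind-8 than in tI-3, and 3 were higher in tI-3 than in Con-3. Without tI-3 replicate 2, 1 was higher and 1 lower in Ind-8 than in tI-3, and 2 were lower there without tI-3 replicate 1 or any 1 of the Ind-8 arrays. The 5 higher calls in tI-3 against Con-3 became 2 without tI-3 replicate 2, Con-3 replicate 1 or Ind-8 replicate 2. These 5 calls became 3 without Con-3 replicate 3 or Ind-8 replicate 1 or 3. From Con-3 to Ind-8, 1 was higher without Ind-8 replicate 2 or Con-3 replicate 1, and 1 lower without any 1 of the Ind-8 arrays or Con-3 replicate 2 or 3. Aldh2 is the mitochondrial enzyme that removes acetaldehyde. For Aldh2, the Ind-8 arrays gave 11.74, 11.89 and 11.56, the Con-3 arrays 10.51, 10.66 and 10.49, and the tI-3 arrays 11.39 and 11.26. The lines did not overlap, with Ind-8 high, tI-3 intermediate and Con-3 low. In Ind-8 it was up-regulated 2.26-fold with respect to Con-3, with a log2 change of 1.18 ± 0.11 (adjusted p = 7.76e-05). With respect to Con-3, Aldh2 was 1.7-fold higher in tI-3 (log2 change 0.77 ± 0.12, adjusted p = 0.00119). The step from tI-3 to Ind-8 was 1.33-fold (log2 change 0.41 ± 0.12, adjusted p = 0.0265), and this call was lost without any 1 of Ind-8 replicates 1 and 2 and tI-3 replicates 1 and 2, with log2 changes of 0.40, 0.33, 0.47 and 0.34. It was also lost after quantile normalization (0.29) and with control level as a block (0.31).

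Aldh1l2, the mitochondrial formyltetrahydrofolate dehydrogenase, was low in tI-3. Aldh1l2 read 8.92, 8.65 and 8.97 on the Ind-8 arrays, 9.02, 9.47 and 9.56 on the Con-3 arrays, and 8.43 and 8.05 on the tI-3 arrays. Both tI-3 arrays were below all others and the Con-3 arrays were the highest, although the Ind-8 array nearest to Con-3 was only just below it. The Aldh1l2 signal in tI-3 was 2.15-fold lower than in Con-3 (log2 change −1.10 ± 0.18, adjusted p = 0.00146). For Ind-8 the log2 change was −0.50 from Con-3 (adjusted p = 0.0463) and 0.60 from tI-3 (adjusted p = 0.0274). The first call was lost without any single array of these lines other than Con-3 replicate 1 (log2 changes from −0.56 to −0.40), and the second without Ind-8 replicate 1 or 3 or tI-3 replicate 2 (0.57, 0.54 and 0.42). With control level as a block both were lost (−0.40 and 0.92), and the second also after quantile normalization (0.45). Aldh18a1, which makes the precursor of proline, fell in Ind-8 (log2 change −0.58 ± 0.12, adjusted p = 0.00798) and in tI-3 (−0.94 ± 0.14, adjusted p = 0.000898) with respect to Con-3.

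Aldh6a1, which acts in the breakdown of valine and thymine, varied within Ind-8. The log2 signals of Aldh6a1 were 5.63, 6.90 and 5.86 in Ind-8, 5.45, 5.42 and 5.63 in Con-3, and 5.34 and 4.81 in tI-3. Ind-8 replicate 2 stood above the rest, all Ind-8 arrays were above both tI-3 arrays, and the lowest Ind-8 value was the same to 2 decimals as the highest of Con-3. From tI-3 to Ind-8, Aldh6a1 was up-regulated 2.08-fold (log2 change 1.06 ± 0.31, adjusted p = 0.027). That change was 0.67 without Ind-8 replicate 2, and 0.79 and no longer called without tI-3 replicate 2. With control level as a block it was not called either (adjusted p = 0.245; over all alternatives adjusted p ran from 0.0142 to 0.245). Aldh7a1, an enzyme of lysine breakdown, was higher in tI-3 than in both other lines, with a log2 change of 0.84 ± 0.15 from Con-3 (adjusted p = 0.00227). Its call against Ind-8 was lost without tI-3 replicate 1 (−0.55) and with control level as a block (−0.54). Aldh9a1, which serves carnitine synthesis, was lower in tI-3, with a log2 change of −0.50 ± 0.10 from Con-3 (adjusted p = 0.00468), a call that was lost with control level as a block (−0.43).

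Aldo-keto reductases reduce carbonyl groups of sugars, steroids and lipid aldehydes with NADPH. Of the 14, limma called 2 higher in Ind-8 than in Con-3 (10.9% of all rows), 1 higher and 1 lower in Ind-8 than in tI-3 (15.6% and 15.5% of all rows), and 4 higher in tI-3 than in Con-3 (10.2% of all rows). Adding control level as a block made these 1, 0 and 0, and 3, and 1 was then lower in tI-3 than in Con-3. In tI-3 against Con-3 the 4 calls became 0 without tI-3 replicate 1 and 2 without tI-3 replicate 2 or Con-3 replicate 2 or 3, and in Ind-8 against Con-3 the 2 became 1 without Ind-8 replicate 2 or Con-3 replicate 3. From tI-3 to Ind-8, none was higher without Ind-8 replicate 1 or 2 or tI-3 replicate 2, none was lower without tI-3 replicate 1, and 2 were lower without Ind-8 replicate 3. Without Con-3 replicate 1, 1 was lower in tI-3 than in Con-3. In the main fit limma called 0 lower in Ind-8 or tI-3 than in Con-3; at an unadjusted p under 0.05, 0 and 2 were lower, and the rank product test called 0. In Ind-8 cells Akr1b10 had log2 signals of 8.89, 9.27 and 8.85, in Con-3 cells of 8.09, 8.14 and 8.03, and in tI-3 cells of 8.75 and 8.59. These are the values of Akr1b10, a reductase of aliphatic and aromatic aldehydes, which were lowest in Con-3 and overlapped in no pair of lines. Its level was 1.89-fold higher in Ind-8 than in Con-3 (log2 change 0.92 ± 0.12, SE; adjusted p = 0.00055). In tI-3 it was up-regulated 1.5-fold with respect to Con-3, with a log2 change of 0.59 ± 0.13 (adjusted p = 0.00881). The call for tI-3 was lost without tI-3 replicate 1, where the log2 change was 0.51, and against the 1 Con-3 array at the high control level (0.64). Akr1c14, a hydroxysteroid dehydrogenase, read 5.96 to 6.63 in Con-3, 6.91 to 7.73 in Ind-8 and 7.01 to 7.46 in tI-3. Its log2 change from Con-3 was 0.87 ± 0.23 in Ind-8 (adjusted p = 0.0208) and 0.88 ± 0.26 in tI-3 (adjusted p = 0.0307). The first call was lost without Ind-8 replicate 2 (0.62) or Con-3 replicate 3 (0.68), and the second without Con-3 replicate 2 or 3 or either tI-3 array (0.94, 0.68, 0.65 and 1.10). Akr1a1, the aldehyde reductase that serves ascorbate synthesis in mice, was included for its high signal and differed little. For Akr1a1, the Ind-8 arrays gave 12.54, 12.60 and 12.40, the Con-3 arrays 12.53, 12.44 and 12.46, and the tI-3 arrays 12.26 and 12.08. The Ind-8 and Con-3 arrays overlapped, and both tI-3 arrays were below them. The log2 change from tI-3 to Ind-8 was 0.34 ± 0.10 (adjusted p = 0.0319 by limma), and the call was lost without Ind-8 replicate 1 or 2 or tI-3 replicate 2 (0.33, 0.30 and 0.25), after quantile normalization (0.23), with control level as a block (0.31) and in a fit of these 2 lines only.

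Carbonyl reductases reduce quinones, prostaglandins and other carbonyl compounds. All 4 were higher in Ind-8 than in tI-3 by limma (15.6% of all rows), with a median log2 change of 0.88. All 4 were also called after a further quantile normalization, but with control level as a block only Cbr1 was, with a median log2 change of 1.02. Without tI-3 replicate 2, 2 of the 4 were called, Cbr3 (0.37) and Cbr4 (0.63) being lost. In Ind-8 against Con-3, 2 of the 4 were higher (10.9% of all rows), and in tI-3 against Con-3, 2 were lower (15.1% of all rows). Cbr2 read 9.28, 9.98 and 10.13 on the Ind-8 arrays, 8.47, 9.06 and 8.90 on the Con-3 arrays, and 8.58 and 8.38 on the tI-3 arrays. These values of Cbr2, a tetrameric mitochondrial reductase, were high on the Ind-8 arrays, which stood above all others, while the Con-3 and tI-3 arrays overlapped. With respect to Con-3, Cbr2 was 1.98-fold higher in Ind-8 (log2 change 0.99 ± 0.21, adjusted p = 0.00872). The Cbr2 signal in Ind-8 was 2.49-fold higher than in tI-3 (log2 change 1.32 ± 0.24, adjusted p = 0.00337). With control level as a block the second difference was 1.46 and not called (adjusted p = 0.0996; over all alternatives adjusted p ran from 0.000679 to 0.0996). Cbr1, a cytosolic enzyme, and Cbr4, which takes part in mitochondrial fatty acid synthesis, were low in tI-3. Their log2 changes from Con-3 to tI-3 were −0.87 ± 0.15 (adjusted p = 0.00261) and −0.66 ± 0.15 (adjusted p = 0.0104), and the Cbr4 call was lost without tI-3 replicate 2 (−0.51) and with control level as a block (−0.70). Cbr3, also cytosolic, rose in Ind-8 by 0.58 ± 0.10 from Con-3 (adjusted p = 0.00253) and by 0.52 ± 0.11 from tI-3 (adjusted p = 0.00687), the latter call also lost with control level as a block (0.42).

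Nqo1, the quinone reductase that is a standard NRF2 target, was spread widely within each line. The log2 signals of Nqo1 were 8.73, 8.55 and 7.36 in Ind-8, 8.50, 7.54 and 6.99 in Con-3, and 8.51 and 7.95 in tI-3. All 3 lines overlapped, and the log2 change from Con-3 to Ind-8 was 0.54 ± 0.40 and was not called (adjusted p = 0.4). Nqo2, its relative that uses dihydronicotinamide riboside, rose by 0.52 ± 0.11 in Ind-8 from Con-3 (adjusted p = 0.00836). Both genes are named here outside the rule for named members, after their values were seen, as are the members given by a range or by 1 change in each family.

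**Figure D3:**
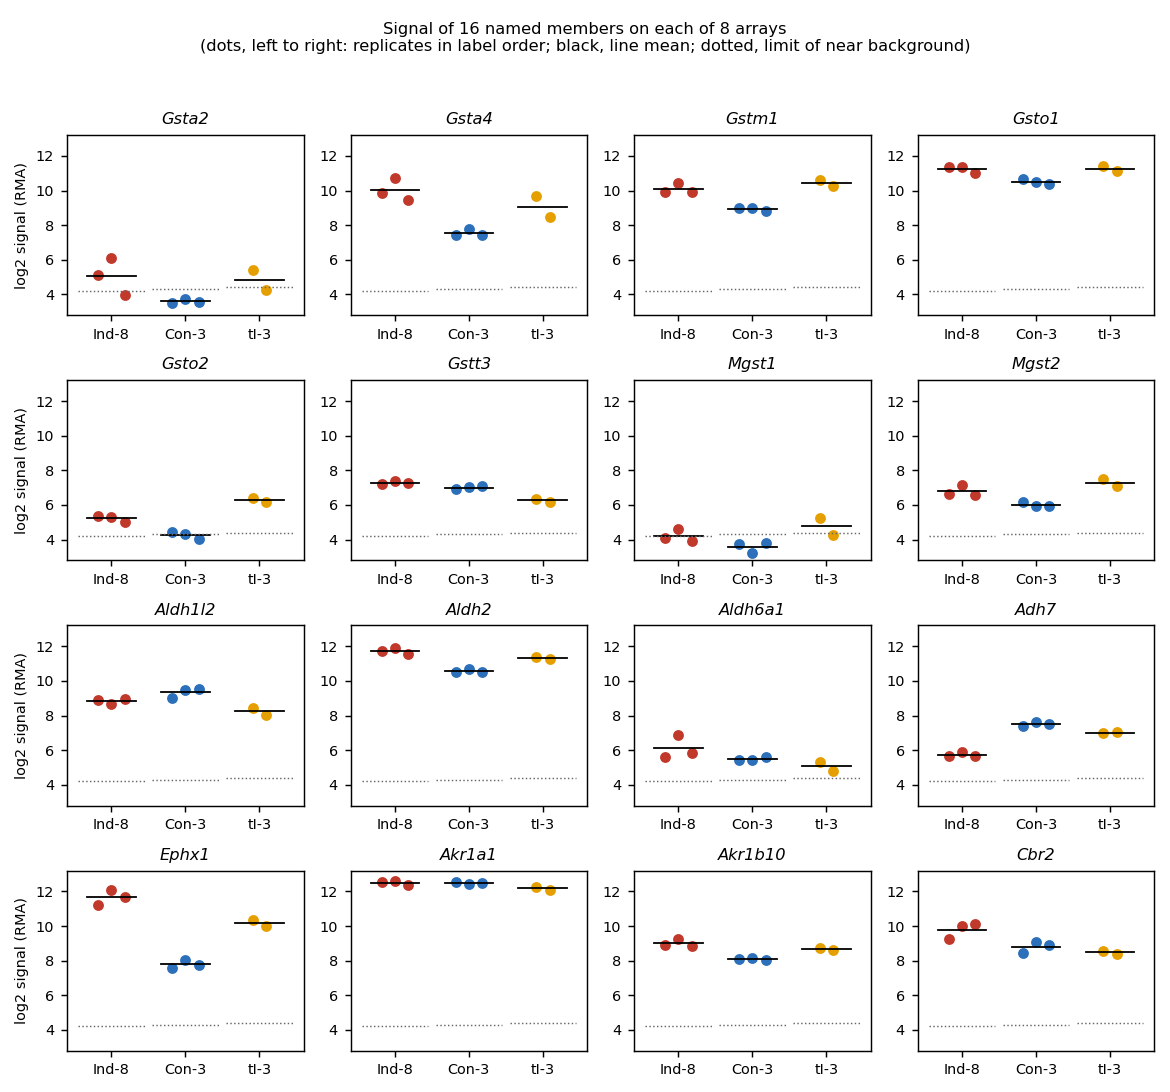
Log2 signal (vertical axis) of the 16 members described individually on each array (dots) of Ind-8 (red), Con-3 (blue) and tI-3 (orange), with line means (black) and the limit of near background (dotted). Ephx1 runs from 7.58 in Con-3 to 12.06 in Ind-8, and Adh7 from 5.66 in Ind-8 to 7.63 in Con-3.

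The glutathione transferases other than the microsomal ones join glutathione to electrophiles. Of these 18 members, 6 were higher in Ind-8 than in Con-3 (10.9% of all rows). In tI-3 against Con-3, 5 were higher (10.2% of all rows) and 1 lower (15.1%), and in Ind-8 against tI-3, 2 were higher (15.6%) and 5 lower (15.5%). Adding control level as a block left 4 higher in Ind-8 than in Con-3, 3 higher in tI-3 than in Con-3, and 1 higher and 1 lower in Ind-8 than in tI-3. After quantile normalization 3 were lower in Ind-8 than in tI-3. There, 3 were lower without tI-3 replicate 1, and 1 was higher and 2 lower without tI-3 replicate 2. In tI-3 against Con-3, 3 were higher without tI-3 replicate 1 and 8 without Con-3 replicate 3. In Ind-8 against Con-3, 0 were called lower by limma, 0 had a lower value at an unadjusted p under 0.05, and the rank product test called 0. Gsta4, an alpha class enzyme for the lipid aldehyde hydroxynonenal, was the member of this family with the largest change. In Ind-8 cells Gsta4 had log2 signals of 9.87, 10.70 and 9.46, in Con-3 cells of 7.43, 7.77 and 7.41, and in tI-3 cells of 9.69 and 8.46. All Ind-8 and tI-3 arrays were above all Con-3 arrays, but Ind-8 and tI-3 overlapped, and tI-3 replicate 2 was far below replicate 1. From Con-3 to Ind-8, Gsta4 was up-regulated 5.55-fold (log2 change 2.47 ± 0.33, adjusted p = 0.000722). Its level was 2.89-fold higher in tI-3 than in Con-3 (log2 change 1.53 ± 0.37, SE; adjusted p = 0.0131). Without tI-3 replicate 1 the latter change was 0.92 and not called; with control level as a block it was 1.66 and not called (adjusted p = 0.0695; over all alternatives adjusted p ran from 0.0065 to 0.128).

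Gsta2, of the same class, was near background in Con-3. For Gsta2, the Ind-8 arrays gave 5.15, 6.11 and 3.97, the Con-3 arrays 3.51, 3.73 and 3.59, and the tI-3 arrays 5.41 and 4.24. Ind-8 replicate 3 was close to the Con-3 arrays, and Ind-8 and tI-3 overlapped. By limma Gsta2 was higher in Ind-8 than in Con-3 (adjusted p = 0.0396). Since Con-3 was near background, the direction alone is given. This call was lost without any 1 of Ind-8 replicates 1 and 2 and the 3 Con-3 arrays (adjusted p = 0.0985, 0.125, 0.0859, 0.0794 and 0.098). The difference between tI-3 and Con-3 was not called (adjusted p = 0.103), and was called without Ind-8 replicate 2 (adjusted p = 0.0407) or 3 (adjusted p = 0.0256) and in a fit of these 2 lines only (adjusted p = 0.0168). Over all alternatives adjusted p ran from 0.0168 to 0.51, the highest without tI-3 replicate 1.

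Gstm1, a mu class enzyme that conjugates epoxides and other electrophiles, was low in Con-3. Gstm1 read 9.90, 10.43 and 9.92 on the Ind-8 arrays, 8.99, 8.98 and 8.79 on the Con-3 arrays, and 10.62 and 10.25 on the tI-3 arrays. Both other lines were above every Con-3 array and overlapped each other. In Ind-8 it was up-regulated 2.24-fold with respect to Con-3, with a log2 change of 1.17 ± 0.15 (adjusted p = 0.000634). With respect to Con-3, Gstm1 was 2.85-fold higher in tI-3 (log2 change 1.51 ± 0.17, adjusted p = 0.000227). Gstm5, of the same class, was higher in Ind-8 than in Con-3 (log2 change 0.46 ± 0.13, adjusted p = 0.0261) and than in tI-3 (0.71 ± 0.14, adjusted p = 0.00506). The first call was lost without Ind-8 replicate 2 or Con-3 replicate 1 or 3 (0.39, 0.44 and 0.41), and the second without tI-3 replicate 2 (0.49) and with control level as a block (0.56).

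Gsto1 and Gsto2 are omega class enzymes, which reduce dehydroascorbate and methylated arsenic compounds and do little classical conjugation. The log2 signals of Gsto1 were 11.36, 11.39 and 11.03 in Ind-8, 10.65, 10.47 and 10.36 in Con-3, and 11.39 and 11.14 in tI-3. Gsto1 was thus lower on each Con-3 array than on any other, with Ind-8 and tI-3 overlapping. The Gsto1 signal in Ind-8 was 1.7-fold higher than in Con-3 (log2 change 0.77 ± 0.13, adjusted p = 0.00204). From Con-3 to tI-3, Gsto1 was up-regulated 1.71-fold (log2 change 0.78 ± 0.14, adjusted p = 0.00299). Gsto2 had another order. In Ind-8 cells Gsto2 had log2 signals of 5.37, 5.33 and 5.04, in Con-3 cells of 4.43, 4.33 and 4.02, and in tI-3 cells of 6.43 and 6.20. The tI-3 arrays were the high ones, Ind-8 arrays were intermediate, and the Con-3 arrays were at the limit of near background. By limma Gsto2 was higher in tI-3 than in Con-3 (adjusted p = 1.63e-05). Since Con-3 was near background, the direction alone is given. It was also higher in Ind-8 than in Con-3 (adjusted p = 0.000699). Its level was 2.09-fold lower in Ind-8 than in tI-3 (log2 change −1.07 ± 0.15, SE; adjusted p = 0.000787). All 3 differences were called by limma under every alternative other than a minimum absolute log2 change of 1, which the one between Ind-8 and Con-3 did not reach.

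Gstt3, a theta class enzyme, was low in tI-3. For Gstt3, the Ind-8 arrays gave 7.21, 7.41 and 7.24, the Con-3 arrays 6.91, 7.02 and 7.08, and the tI-3 arrays 6.34 and 6.20. The 3 lines did not overlap, and Ind-8 and Con-3 were close. In Ind-8 it was up-regulated 2.03-fold with respect to tI-3, with a log2 change of 1.02 ± 0.11 (adjusted p = 0.000164). With respect to Con-3, Gstt3 was 1.66-fold lower in tI-3 (log2 change −0.73 ± 0.11, adjusted p = 0.00084). The difference between Ind-8 and Con-3, 0.29 ± 0.10, was not called (adjusted p = 0.0548).

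Microsomal glutathione transferases are membrane enzymes that conjugate glutathione and reduce lipid peroxides. Mgst2, which can also make leukotriene C4, was low in Con-3. Mgst2 read 6.66, 7.18 and 6.59 on the Ind-8 arrays, 6.16, 5.94 and 5.96 on the Con-3 arrays, and 7.49 and 7.10 on the tI-3 arrays. Every Con-3 array was below the other arrays, and Ind-8 and tI-3 overlapped. The Mgst2 signal in Ind-8 was 1.73-fold higher than in Con-3 (log2 change 0.79 ± 0.16, adjusted p = 0.00626). From Con-3 to tI-3, Mgst2 was up-regulated 2.42-fold (log2 change 1.28 ± 0.18, adjusted p = 0.000729). Mgst1, the enzyme of the endoplasmic reticulum and outer mitochondrial membrane, was near background in Con-3 and Ind-8. The log2 signals of Mgst1 were 4.07, 4.60 and 3.94 in Ind-8, 3.72, 3.26 and 3.83 in Con-3, and 5.26 and 4.29 in tI-3. The tI-3 arrays were above all Con-3 arrays, but replicate 2 lay within the Ind-8 range. By limma Mgst1 was higher in tI-3 than in Con-3 (adjusted p = 0.0124). Since Con-3 was near background, the direction alone is given. Without tI-3 replicate 1 it was not called (adjusted p = 0.118), nor with control level as a block (adjusted p = 0.146), and over all alternatives adjusted p ran from 0.00615 to 0.153. Mgst3 read 8.70 to 9.29 in Con-3 and 9.31 to 10.13 in Ind-8, a log2 change of 0.69 ± 0.21 (adjusted p = 0.0418). This call was lost without any single array other than Ind-8 replicate 1 and Con-3 replicate 2 (log2 changes from 0.45 to 0.77), in a fit of the 2 lines only and after quantile normalization (0.68).

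The members varied more between arrays of one line than rows did in general. The residual SD over the 3 lines had a median of 0.16 among members and 0.13 among all rows, and 14 of 68 members (20.6%) were above the 90th percentile of all rows, 0.24. Gsta2 (0.77), Nqo1 (0.70), Gsta4 (0.57), Aldh6a1 (0.47) and Mgst1 (0.43) had the widest spread. In Ind-8, 39 of 68 members (57.4%) were highest on replicate 2, which held the highest value of 30.5% of all rows. In tI-3, 44 members (64.7%) were highest on replicate 1, beside 54.9% of all rows. In Con-3, 28 members (41.2%) were highest on replicate 2, beside 29.0% of all rows. What sets these arrays apart was not tested.

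**Figure D4:**
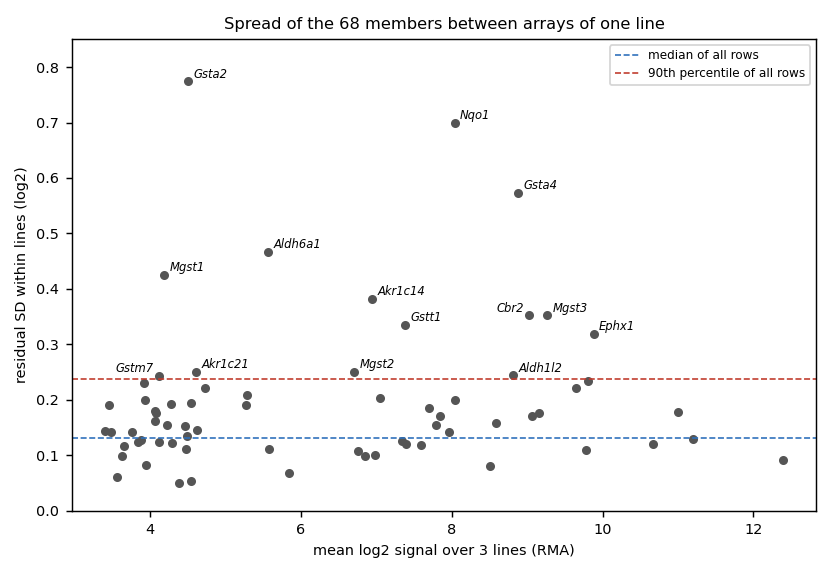
Residual SD between arrays of one line (vertical axis, log2) against mean log2 signal over the 3 lines (horizontal axis) for the 68 members, with dashed lines at the median (blue) and 90th percentile (red) of all rows. The 14 members above the upper line are named, with Gsta2 at 0.77, Nqo1 at 0.70 and Gsta4 at 0.57.

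**Figure D5:**
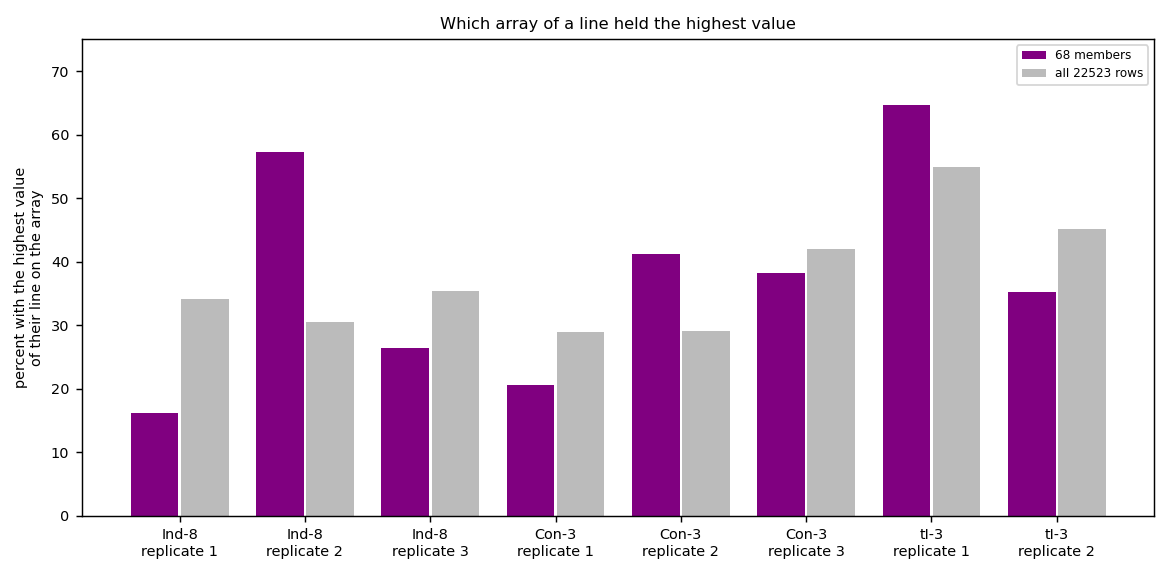
Percent of the 68 members (purple bars) and of all 22523 rows (grey bars) whose highest value within a line was on each array; the bars of a line add up to all members or rows. Ind-8 replicate 2 held the highest value of 57.4% of members and of 30.5% of all rows.

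Other genes of these pathways were counted from lists. Of 30 NRF2 regulators and target genes 29 were found. In Ind-8 against Con-3, 9 were higher and 1 lower (10.9% and 11% of all rows), in Ind-8 against tI-3 7 were higher and 1 lower (15.6% and 15.5%), and in tI-3 against Con-3 7 were higher and 3 lower (10.2% and 15.1%). After quantile normalization these were 11 and 1, 6 and 2, and 10 and 0, and with control level as a block 9 and 1, 1 and 0, and 5 and 0. Without tI-3 replicate 2, 3 were higher in Ind-8 than in tI-3. In Ind-8 against tI-3 none was lower without tI-3 replicate 1 and 2 were without Ind-8 replicate 2, and in Ind-8 against Con-3 none was lower without Con-3 replicate 2 or Ind-8 replicate 2 or 3. The 3 lower calls in tI-3 against Con-3, Maff, Mafg and Me1, were lost under both settings and without either tI-3 array, while without Ind-8 replicate 3 limma called 5 and without Con-3 replicate 1 or 2 it called 1. Their log2 changes were −0.54, −0.39 and −0.36 in the main fit, −0.50, −0.36 and −0.35 with the block, and −0.40, −0.26 and −0.25 after quantile normalization. In the main fit 5 were lower at an unadjusted p under 0.05 and 0 by rank product. Nfe2l2, the gene of NRF2 itself, which like these 3 and Cyp1b1 below was named after its values were seen, averaged 10.04 in Ind-8, 9.22 in Con-3 and 9.95 in tI-3. Hmox1, heme oxygenase 1, which degrades heme, read 11.77, 11.66 and 10.98 in Ind-8, 9.54, 9.11 and 8.98 in Con-3, and 10.24 and 10.04 in tI-3. The 3 lines did not overlap, with Ind-8 highest and Con-3 lowest. The log2 change of Hmox1 from Con-3 to Ind-8 was 2.25 ± 0.20 (adjusted p = 7.94e-05). Srxn1, which repairs peroxiredoxins, was lower in Con-3 (7.63 to 7.87) than in Ind-8 (8.38 to 8.73) and in tI-3 (8.73 and 8.86). Srxn1 was higher in tI-3 than in Con-3 by limma, with a log2 change of 1.04 ± 0.13 (adjusted p = 0.000312). Slc7a11, the cystine transporter, was highest in tI-3, with 6.98 and 6.25, beside 5.10 to 5.87 in Ind-8 and 4.98 to 5.30 in Con-3. By limma Slc7a11 was lower in Ind-8 than in tI-3, with a log2 change of −1.13 ± 0.24 (adjusted p = 0.00674). This call was lost without tI-3 replicate 1 (−0.77) and with control level as a block (−0.86). The difference of Slc7a11 between tI-3 and Con-3 was called under every alternative (adjusted p = 0.00141 in the main fit).

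All 7 genes listed for AHR signalling were found. Ahrr, the AHR repressor, and Cyp1b1, a cytochrome P450 target, were higher in Ind-8 than in Con-3, and these genes and Tiparp, a target that limits AHR, were higher in tI-3 than in Con-3. Of all rows, 10.9% were higher in the first comparison and 10.2% in the second. In Ind-8 against tI-3 (15.6% of all rows higher, 15.5% lower), limma called 0 of them, 1 was higher at an unadjusted p under 0.05, and the rank product test called 0; after quantile normalization limma called 1 higher. With control level as a block, 1 was higher in Ind-8 than in Con-3 and 2 in tI-3 than in Con-3. Without tI-3 replicate 1 limma called 0 higher in tI-3 than in Con-3 and without replicate 2 it called 1, where 4 had an unadjusted p under 0.05 and 1 a rank product call in the main fit. In Ind-8 against Con-3, 4 were higher without Con-3 replicate 1, and 1 without Con-3 replicate 2 or 3 or Ind-8 replicate 2. The Cyp1b1 calls were lost without any single Ind-8 array for Ind-8, without either tI-3 array for tI-3, and without Con-3 replicate 2 or 3 for both (log2 changes from 0.48 to 0.82). The Ahrr call for tI-3 was lost without either tI-3 array (0.56 and 0.69) and with control level as a block (0.60). Ahrr read 5.69 to 6.30 in Ind-8, 4.88 to 4.96 in Con-3, and 5.63 and 5.49 in tI-3. The log2 change of Ahrr from Con-3 to Ind-8 was 1.04 ± 0.14 (adjusted p = 0.000626). Tiparp was spread widely, from 6.38 to 7.67 in Con-3 and from 7.29 to 8.12 in Ind-8, and read 8.51 and 8.13 in tI-3. Tiparp was higher in tI-3 than in Con-3 by limma, with a log2 change of 1.43 ± 0.35 (adjusted p = 0.0127). It was 1.23 and not called without tI-3 replicate 1.

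Of 29 other enzymes of phases I and II, all found, 10 were higher in Ind-8 than in Con-3 (10.9% of all rows), 4 higher and 5 lower in Ind-8 than in tI-3 (15.6% and 15.5%), and 8 higher and 2 lower in tI-3 than in Con-3 (10.2% and 15.1%). The counts with control level as a block were 8, 3 and 0, and 4 and 2, and after quantile normalization 10, 6 and 5, and 7 and 2. In tI-3 against Con-3, 4 were higher without tI-3 replicate 1 and 5 without tI-3 replicate 2 or Con-3 replicate 1 or 2, and in Ind-8 against tI-3, 3 were lower without Ind-8 replicate 3 or tI-3 replicate 2. In Ind-8 against Con-3, 0 were lower by limma, 1 was lower at an unadjusted p under 0.05, and the rank product test called 0 lower. Por, the reductase that supplies electrons to microsomal cytochromes P450, read 10.49, 10.38 and 10.35 in Ind-8, 9.57, 9.62 and 9.60 in Con-3, and 10.74 and 10.73 in tI-3. Its tI-3 arrays were highest and its Con-3 arrays lowest, with no overlap. By limma Por was higher in tI-3 than in Con-3, with a log2 change of 1.14 ± 0.09 (adjusted p = 3.27e-05). Xdh, which makes urate, was also highest in tI-3, at 6.46 and 6.30, beside 4.91 to 5.42 in Ind-8 and 4.42 to 4.86 in Con-3. The log2 change of Xdh from Con-3 to tI-3 was 1.75 ± 0.17 (adjusted p = 9.84e-05). Ugt1a6a, a glucuronosyltransferase, read 5.50 to 6.38 in Ind-8, 4.67 to 5.02 in Con-3, and 6.59 and 5.61 in tI-3. Nat2, an arylamine acetyltransferase, was low in tI-3, at 6.78 and 6.50, beside means of 7.88 in Ind-8 and 7.92 in Con-3. Nat2 was lower in tI-3 than in Con-3 by limma, with a log2 change of −1.28 ± 0.12 (adjusted p = 8.11e-05). Cyp39a1, an oxysterol hydroxylase, was above the other lines in Ind-8, at 5.79 to 6.23, beside 4.53 to 4.97 in Con-3 and 4.95 and 4.57 in tI-3. By limma Cyp39a1 was higher in Ind-8 than in Con-3, with a log2 change of 1.16 ± 0.16 (adjusted p = 0.000815). Aox1, an aldehyde oxidase, read 4.53 to 5.63 in Ind-8 and 3.76 to 4.16 in Con-3. Con-3, at a mean of 3.96, was near background, and the direction alone is given: Aox1 was higher in Ind-8 (adjusted p = 0.0122 by limma).

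Of 23 retinoid genes 22 were found, and 3 were higher and 3 lower in Ind-8 than in Con-3 (10.9% and 11% of all rows), 2 higher and 2 lower in Ind-8 than in tI-3 (15.6% and 15.5%), and 4 higher and 2 lower in tI-3 than in Con-3 (10.2% and 15.1%). The block for control level made these 3 and 1, 0 and 0, and 1 and 1, and after quantile normalization 3 and 2, 3 and 1, and 5 and 2. From Con-3 to Ind-8, 1 was lower without Ind-8 replicate 2 or Con-3 replicate 1 or 3. From Con-3 to tI-3, 1 was lower without any 1 of the Con-3 arrays or Ind-8 replicate 1 or 2. In Ind-8 against tI-3, none was called without Ind-8 replicate 2 and 1 was lower without Ind-8 replicate 1. None was higher in the latter without Ind-8 replicate 3 or tI-3 replicate 1, and without tI-3 replicate 2, 1 was higher and 0 lower in Ind-8 than in tI-3 and 1 higher and 1 lower in tI-3 than in Con-3. In the main fit of Ind-8 against tI-3, 4 were higher and 4 lower at an unadjusted p under 0.05, and the rank product test called 0. Crabp1, which binds retinoic acid in the cytosol, read 5.30 to 5.72 in Con-3, 3.80 to 3.99 in Ind-8, and 4.20 and 3.75 in tI-3. Only the Con-3 arrays were above the limit of near background. The direction alone is therefore given: by limma Crabp1 was lower than in Con-3 both in Ind-8 (adjusted p = 9.57e-05) and in tI-3 (adjusted p = 0.000177). Crabp2, which carries retinoic acid to its nuclear receptors, read 9.32 to 10.62 in Con-3, 10.16 to 11.00 in Ind-8, and 11.20 and 11.06 in tI-3. The log2 change of Crabp2 from Con-3 to tI-3 was 1.10 ± 0.33 (adjusted p = 0.0324). This call was lost without Con-3 replicate 1 or 3 or either tI-3 array (0.75, 1.16, 1.03 and 1.17) and with control level as a block (0.98).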

How the data were processed

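The authors deposited log2 signals, made with RMA from Affymetrix arrays and a custom RefSeq probe set file of version 12, for 8 arrays of 3 lines. Of 22587 rows, 64 Affymetrix controls were left out. Rows were named through RefSeq, and 18294 of 22523 had a name. Groups follow the labels, and the lines were compared in 3 pairs. limma 3.58.1 in R 4.3.3 fitted 3 line means to all arrays (5 residual and 5.33 prior degrees of freedom), with Benjamini-Hochberg adjustment over all rows. Rank products were re-implemented with 100 permutations within arrays, with numpy 2.4.6, pandas 2.3.3 and scipy 1.17.1 under Python 3.11.15; matplotlib 3.10.9 drew the figures. Both were tested on simulated data, where the rank product called a larger share of unchanged rows than its pfp limit states. An SE follows each ± sign.

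Members described individually were Ephx1 and Adh7, those with a limma call and an absolute log2 change of at least 1 in any comparison that were above background in some line, those with a rank product call, and the 3 with the highest mean signal. From the lists of other pathway genes, those with such a limma call were named. Members and lists were chosen with earlier results of these data known. Alternatives were a replicate block, a prior with a trend, repeated quantile normalization, a filter on low rows, identical rows counted once, a block for the hybridization controls, 2 lines only, a minimum change, each array left out, other limits for pfp and background, and another null of the rank product.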

Additional observations from a re-analysis of the deposited data

How the results depend on the processing

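Of 33 changes called among the members described individually, 13 were called under every alternative, 20 were lost under at least 1 and 0 reversed; of 15 not called, 8 were called under at least 1. With a minimum absolute log2 change of 1, limma called 5 members higher and 1 lower in Ind-8 against Con-3 (1.63% and 0.431% of all rows), 4 and 2 in Ind-8 against tI-3 (2.45% and 0.573%), and 6 and 1 in tI-3 against Con-3 (1.15% and 2.11%). The changes lost only there were those of Akr1b10, Cbr2, Gsto1, Gsto2 and Mgst2 from Con-3 to Ind-8 and of Aldh2, Gsto1 and Gstt3 from Con-3 to tI-3. With the hybridization controls as a block, it called 2 higher and 2 lower in Ind-8 against tI-3 (2.2% and 0.941%) and 11 higher in tI-3 against Con-3 (5.06%). After quantile normalization 7 were lower in Ind-8 against tI-3. Against only the Con-3 array with a high control level, an alternative added after the data were seen, 10 were higher in tI-3.

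With 1 array left out, limma called 11 to 16 higher and 2 to 3 lower in Ind-8 against Con-3, 5 to 13 higher and 6 to 13 lower in Ind-8 against tI-3, and 9 to 16 higher and 5 to 8 lower in tI-3 against Con-3. Rank product calls were 3 to 7, 0 to 2 and 0 to 3 in the same order. Where 1 tI-3 array is left, it is assumed to vary like the other lines. The lowest limma counts of both comparisons with tI-3 came from such fits. The shares that follow do not cover these fits, so those counts are not to be read beside them. Without 1 of the Ind-8 or Con-3 arrays, limma called 7.86% to 10.3% of all rows higher and 7.65% to 9.79% lower in Ind-8 against Con-3. In Ind-8 against tI-3 these shares were 12.6% to 16.0% and 9.99% to 16.7%, and in tI-3 against Con-3 7.02% to 10.2% and 11.7% to 15.0%. At a pfp under 0.01, the calls were 4, 0 and 2 (1.33%, 0.702% and 0.844% of all rows), and with each ranking permuted independently 23, 17 and 19 (21.0%, 14.4% and 14.3%). With the 40th percentile as the limit, 31 members (45.6%) were near background, beside 37.2% of all rows. The cause was not tested.

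With a replicate block, limma called 18 higher and 3 lower (12.1% and 11.8% of all rows), 15 and 17 (17.4% and 19.6%), and 18 and 8 (12.3% and 16.0%). Deviations of Ind-8 and Con-3 arrays of the same number correlated at 0.27, 0.029 and 0.381, and those of different number from −0.408 to 0.117. Pairs of the same number with a tI-3 array gave 0.009 and −0.225 for Ind-8, and 0.205 and 0.042 for Con-3. The main fit did not pair arrays by number, and whether the number marks arrays made together was not tested. Mgst1 has no value with the filter on low rows. Signal over background limits what can be said of the dim members.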
